A study of Mus musculus with 12 samples.

Results

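Mice with a constitutive knockout of sphingosine kinase 2 (SphK2) were compared with wild-type mice, all fed a control diet with normal water, over the 111 genes that stand from A2m to Cat in a metabolic nCounter table of 736 rows. nCounter reads barcoded probes hybridised to RNA and counts them directly, with no PCR step. The comparison takes 3 knockout and 3 wild-type libraries of the 12 in the series, each from a male mouse of the C57BL6-NJ background. The remaining 6 libraries are from Western-diet mice given sugar water, 3 knockout and 3 wild-type, of the same sex and background. The labelled ages on control diet are 259, 253 and 250 days for knockout replicates 1 to 3, against 231, 231 and 232 days for wild type. On Western diet they are 221, 217 and 252 days for knockout, against 226, 226 and 232 days for wild type. Age and genotype therefore cannot be told apart within the control-diet mice. The growth protocol gives 16 weeks of diet for all mice, whereas the labels give each library a duration of its own, 16 to 27 weeks, rising by 1 week from sample to sample. The labelled ages of the 3 control-diet knockout mice, and of 1 Western-diet knockout mouse, exceed the starting age plus diet time that the protocol allows. The knockout is constitutive, so every cell of these mice lacks the gene by the labels, and no row of the table was named Sphk2 or Sphk1, so the genotype was not checked in these libraries. Rows after Cat are counted below and not named, because gene names were taken as usable only from A2m to Cat.

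SphK2 is one of the kinases that phosphorylate sphingosine to sphingosine-1-phosphate, a lipid that acts as a signal inside the nucleus and through receptors on the cell surface. Apolipoprotein M, made by hepatocytes, holds this lipid on high-density lipoprotein particles in blood. The genes from A2m to Cat cover much of hepatocyte metabolism: lipoprotein assembly, fatty acid oxidation, the urea cycle, homocysteine remethylation and alcohol oxidation.

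The labels name no tissue. The recovered total was 1738390 to 1924846 counts per control-diet library. No listed signal is below 21, and values at this floor have no order; 80 to 120 of the 736 rows stood there per library. Of the 111 genes, 86 were above 21 in all 6 control-diet libraries, 19 were at 21 in some of them, and 6 were at 21 in all of them. All 19 measured transcripts that are abundant in hepatocytes were above 21 in every control-diet library. Their summed signal was 581028, 604321 and 557777 in the knockout libraries, against 630630, 620798 and 620724 in the wild-type libraries. The groups did not overlap in these sums, which were not scaled to the library. Over all rows, signal summed to 1836525, 1695623 and 1745361 in the knockout libraries, and to 1726522, 1784460 and 1776836 in the wild-type libraries. Knockout replicate 2, nearest to wild type in the marker sum, had the lowest of these totals. The gap between the groups thus depends on library scale. In bulk RNA, fewer cells of a type and less RNA per cell cannot be told apart. The summed signal of 8 markers of other cells was 345, 255 and 316 in the knockout libraries and 236, 292 and 255 in the wild-type libraries. Of these markers, Blk of B cells and Ampd1 of skeletal muscle were at 21 in all 6 libraries. In knockout replicates 1, 2 and 3, 2, 4 and 3 of the 8 stood at 21, and 3, 3 and 5 in wild-type replicates. Cacng7, Adh7 and Ak5, listed as neuron or gut markers, had the highest means. The sums thus hold floor values and say little of other cell types. The part of cell makeup in the results below was not tested.

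Knockout replicate 2 resembled the wild-type libraries, and wild-type replicate 2 was split between the genotypes by count of genes. Knockout replicate 2 lay nearer to the mean of wild type than to that of its own genotype's other libraries in 80 of the 111 genes (72.1%). The same count was 28 for knockout replicate 1 and 25 for knockout replicate 3. Wild-type replicate 2 was nearer to the knockout mean in 56 of the 111 genes (50.5%), against 33 for wild-type replicate 1 and 35 for wild-type replicate 3. The mean of the own genotype is over 2 libraries and that of the other over 3, so an even split is not a neutral value. The knockout mean also includes knockout replicate 2. Over the 86 genes above 21, the median absolute log2 difference was 0.10 between knockout replicates 1 and 3, and 0.23 between knockout replicate 2 and each of them. Between knockout replicate 2 and wild-type replicate 1 it was 0.11, and no gene differed by over 2-fold in that pair. Wild-type replicate 2 was at 0.24 and 0.21 from knockout replicates 1 and 3, against 0.19 from each of the other wild-type libraries. By this median it lay nearer to its own genotype than to those 2, but nearest of all to knockout replicate 2 (0.16). Over 2-fold, it differed in 1 gene from each of knockout replicates 1 and 3 and in 4 from knockout replicate 2. From wild-type replicates 1 and 3 it differed in 7 and 5 genes, so that count put it nearer to the knockout libraries. Whether the labels of knockout replicate 2 and wild-type replicate 2 were exchanged was not tested, and no row measures the deleted gene. The genotypes are those of the labels throughout. Of 43 genes given below with a log2 fold change, 27 moved by over 1.5-fold without both replicates 2, and that estimate stands beside theirs, marked as without both.

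**Figure D1:**
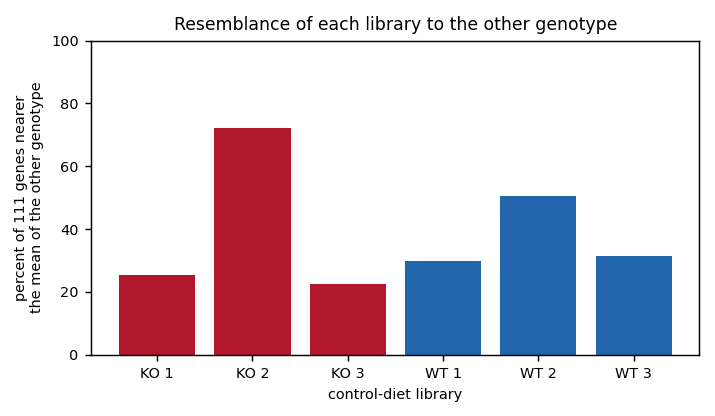
Percent of the 111 genes from A2m to Cat in which a control-diet library lies nearer to the mean of the other genotype than to the mean of the other libraries of its own (y axis, 0 to 100), for each of 3 knockout (red) and 3 wild-type (blue) libraries. Knockout replicate 2 reached 72.1% and wild-type replicate 2 reached 50.5%, and the other 4 libraries lay between 22.5% and 31.5%.

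With all 6 libraries, no gene passed the test of knockout against wild type on control diet (0 of 111, and 0 of 736 rows, 0.0%, by limma with Benjamini-Hochberg adjustment over 736 rows, threshold 0.05). The smallest adjusted p was 0.65. At an unadjusted p under 0.05 there were 6 of the 111 genes, 2 higher and 4 lower in knockout mice, beside 35 of all 736 rows (4.76%), 21 higher (2.85%) and 14 lower (1.9%). The 3 knockout and 3 wild-type values did not overlap in 12 of the 111 genes (10.8%), beside 49 of 736 rows (6.66%). An exact two-sided permutation test of 3 against 3 cannot go below p = 0.1, so no single gene could pass by that test. The median log2 fold change was 0 over the 111 genes and 0.02 over all rows. On the log2 scale, the library medians averaged 0.17 more in knockout mice. With each library centred on its median, the rows at an unadjusted p under 0.05 became 13 higher (1.77%) and 31 lower (4.21%), 44 in all (5.98%). The genes without overlap became 7 of the 111, 2 higher and 5 lower, beside 60 of 736 rows (8.15%). These rows were 19 higher (2.58%) and 41 lower (5.57%), where without centring 28 were higher (3.8%) and 21 lower (2.85%).

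The 12 genes whose groups did not overlap were 6 higher and 6 lower in knockout mice, and none passed the test. Acap2, a GTPase-activating protein for Arf6 in endocytic traffic, had 151, 149 and 164 in knockout mice and 118, 118 and 130 in wild-type mice. The log2 fold change, knockout over wild type, was 0.34 ± 0.14 (SE, limma, n = 3 each), and such values with SE follow other genes in parentheses. Every knockout value lay above every wild-type value, replicate 2 included, which the choice of genes without overlap fixes in advance. Atf7, a transcription factor of the ATF/CREB family, had 217, 207 and 201 in knockout mice and 187, 172 and 177 in wild-type mice (0.22 ± 0.08). Arid1a, a subunit of the SWI/SNF chromatin remodelling complex, had 164, 149 and 170 in knockout mice and 129, 132 and 141 in wild-type mice (0.26 ± 0.13). Atf7 and Arid1a were thus separated by narrow gaps. Replicate 2 kept to its own genotype in both, again by that choice. Atox1, the copper chaperone, averaged 1632 ± 45.0 in knockout mice and 1497 ± 86.9 in wild-type mice (SD over 3 mice). Its log2 fold change was 0.13 ± 0.08, and -0.04 with median centring. Brca2, a gene of homologous recombination repair, averaged 60.4 ± 7.77 in knockout mice and 45.6 ± 3.49 in wild-type mice (0.40 ± 0.22). Ak5, an adenylate kinase best known from brain, averaged 40.6 ± 1.70 in knockout mice and 34.8 ± 2.42 in wild-type mice (0.22 ± 0.22). With median centring the estimates were 0.18 for Acap2, 0.05 for Atf7, 0.10 for Arid1a, 0.23 for Brca2 and 0.05 for Ak5. Centring lowers every estimate by the same amount, so it brought these genes toward 0 and moved the lower genes below away from it. The lack of overlap in these higher genes is thus that of signal not centred on the library.

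Of those lower in knockout mice without overlap, Ampd2, an AMP deaminase, had 287, 251 and 244 in knockout mice, against 293, 293 and 365 in wild-type mice (-0.28 ± 0.10). Adk, adenosine kinase, had 12529, 12793 and 11311 in knockout mice, against 13059, 13521 and 14727 in wild-type mice (-0.17 ± 0.08). Knockout replicate 1 and wild-type replicate 1 nearly met in Ampd2, while in Adk the gap was between knockout replicate 2 and wild-type replicate 1. Apoc3, an apolipoprotein that slows triglyceride clearance, had 60357, 60567 and 60599 in knockout mice, against 66229, 67622 and 65600 in wild-type mice. Its knockout values were nearly equal, and its log2 fold change was -0.14 ± 0.11. Atp5k, a subunit of mitochondrial ATP synthase, averaged 2658 ± 330 in knockout mice and 3104 ± 226 in wild-type mice (-0.23 ± 0.11). A2m, a protease inhibitor, was listed at 21 in knockout replicates 1 and 2 and at 29.0 in replicate 3, against 32.7, 30.7 and 31.3 in wild-type mice. Its log2 fold change of -0.42 ± 0.18 rests on that floor.

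**Figure D2:**
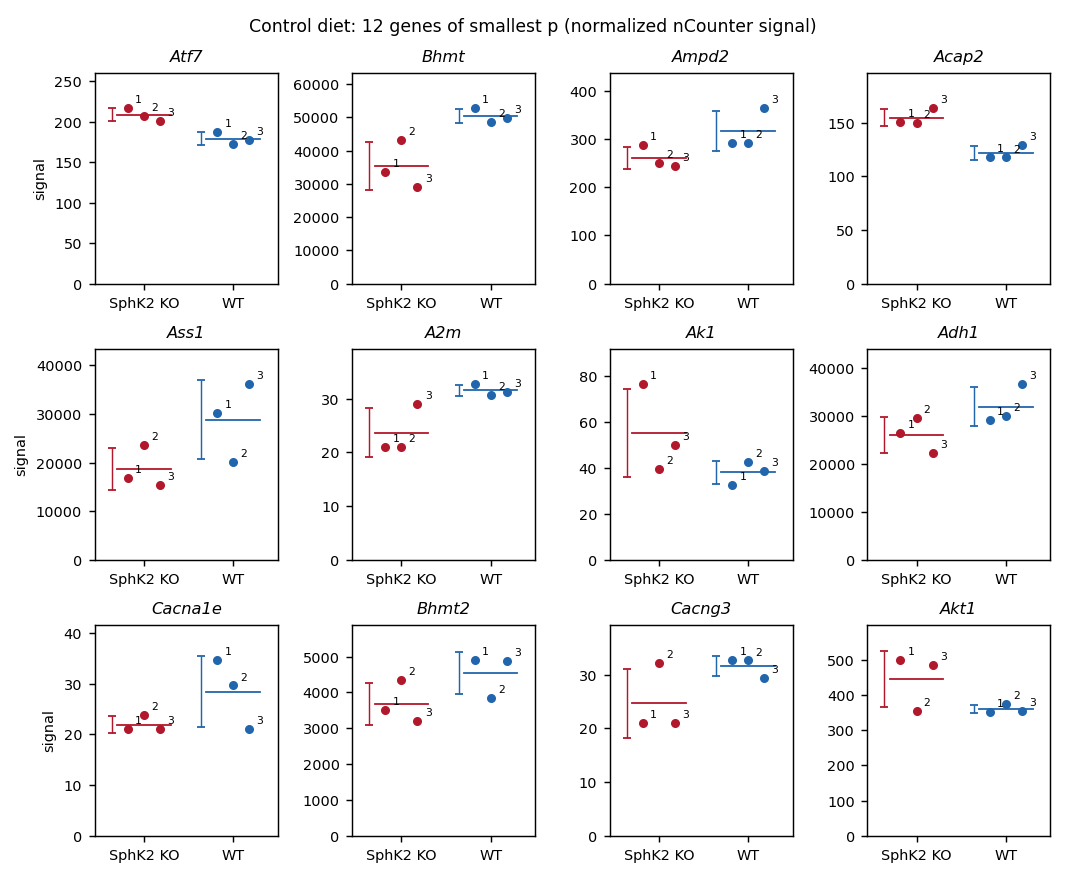
Normalized nCounter signal (y axis, linear from 0, 1 scale per panel) of the 12 genes from A2m to Cat with the smallest p on control diet, in SphK2 knockout (red) and wild-type (blue) mice. Numbers mark the replicates, horizontal lines the means and side bars the SD of 3 mice. In Atf7, Bhmt, Ampd2, Acap2 and A2m the groups do not overlap, and in the other 7 genes they do.

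Amino acid, urea cycle, kynurenine and one-carbon enzymes were lower on average in knockout mice in 13 of 13 measured members, none of which passed the test. Over all 736 rows, 288 were lower and 396 higher, and with median centring 522 were lower and 214 higher, beside 13 of the 13 lower. The 522 include rows at 21 in every control-diet library, such as Blk, which hold no difference and count as lower only through the centring. The list's median log2 fold change was -0.49, beside 0.02 over all rows, and 2 members were at an unadjusted p under 0.05. The list was made with earlier results of these data known, so its direction is a description. Per library, 1, 12 and 0 of the 13 members stood above the mean of the 6 libraries in knockout replicates 1, 2 and 3, and 11, 6 and 10 in wild-type replicates 1, 2 and 3. The list was thus low in knockout replicates 1 and 3 and not in replicate 2. Without both control-diet replicates 2 the median was -0.71, with 12 lower and 1 higher. It was -0.30 without knockout replicate 1 and -0.31 without knockout replicate 3 or wild-type replicate 1, with 0 members at an unadjusted p under 0.05 in each. With age as a covariate it was -0.12, with 12 of the 13 lower. The age slope was fitted on age differences within the groups, which were largest in Western-diet knockout mice (221, 217 and 252 days). It was then applied to the gap between the genotypes on control diet, where their ages do not overlap. That setting therefore leans on few libraries and cannot part age from genotype.

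Bhmt, which remethylates homocysteine to methionine with betaine, had 33666, 43259 and 29104 in knockout mice, against 52873, 48629 and 49893 in wild-type mice. Every knockout value lay below every wild-type value. The log2 fold change was -0.53 ± 0.19 (adjusted p = 0.65 by limma). Bhmt2, its neighbour on the same chromosome, which uses S-methylmethionine as methyl donor, had 3502, 4346 and 3213 in knockout mice and 4905, 3855 and 4865 in wild-type mice. Here the groups overlapped through the 2 replicates 2, and the log2 fold change was -0.30 ± 0.14, and -0.54 without both. The probe sequences that tell these related genes apart were not analysed here. The 250 bases before the annotated start of each gene, from RefSeq on GRCm38.p6, are shown because this adjoining pair was lower in knockout mice together. They were searched on both strands for the nuclear receptor half-site AGGTCA, for the CCAAT box and for the TATA motif TATAAA, and capitals mark every match, on either strand.
Bhmt, chr13:93637759-93638008, - strand: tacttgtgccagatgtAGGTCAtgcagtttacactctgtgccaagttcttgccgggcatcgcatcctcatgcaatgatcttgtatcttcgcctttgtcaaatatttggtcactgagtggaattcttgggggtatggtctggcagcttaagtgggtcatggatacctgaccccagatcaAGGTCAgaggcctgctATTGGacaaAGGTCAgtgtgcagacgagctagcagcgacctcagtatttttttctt
Bhmt2, chr13:93674303-93674552, - strand: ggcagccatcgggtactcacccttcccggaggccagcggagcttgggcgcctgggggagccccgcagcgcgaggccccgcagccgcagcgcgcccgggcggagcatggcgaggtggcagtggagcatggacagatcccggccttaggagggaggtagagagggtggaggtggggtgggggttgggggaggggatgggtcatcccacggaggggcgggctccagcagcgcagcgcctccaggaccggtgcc
The Bhmt window holds AGGTCA 3 times and CCAAT once on the opposite strand, and that of Bhmt2 holds none of the motifs. Of 32851 RefSeq promoter windows of this length, 14.0% hold AGGTCA, 33.8% hold CCAAT and 12.4% hold TATAAA. A match describes the letters and not a bound site.

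The urea cycle enzymes were lower in knockout replicates 1 and 3. Ass1, argininosuccinate synthase, had 16828, 23652 and 15462 in knockout mice, against 30160, 20159 and 36167 in wild-type mice. With a log2 fold change of -0.61 ± 0.25, it did not pass with all libraries, and the estimate was -1.03 without both replicates 2. Asl, argininosuccinate lyase, had 2033, 4002 and 1812 in knockout mice, against 3962, 2809 and 5175 in wild-type mice (-0.66 ± 0.36, and -1.24 without both). Knockout replicate 2 was close to wild-type replicate 1, and wild-type replicate 2 was the lowest of its group. Arg1, arginase, had 8730, 14136 and 7777 in knockout mice, against 15031, 12846 and 15637 in wild-type mice (-0.55 ± 0.27, and -0.90 without both). The kynurenine pathway enzymes Afmid and Acmsd were singled out after their values were seen. Afmid, kynurenine formamidase, had 581, 1279 and 586 in knockout mice, against 1276, 922 and 1032 in wild-type mice (-0.49 ± 0.34, and -0.97 without both). Acmsd, which diverts the pathway from NAD synthesis, had 101, 149 and 111 in knockout mice, against 233, 69.2 and 310 in wild-type mice (-0.53 ± 0.50, and -1.34 without both). The lowest Acmsd value was thus that of wild-type replicate 2. Agxt, the glyoxylate-detoxifying alanine aminotransferase of peroxisomes, had 283, 759 and 279 in knockout mice, against 753, 396 and 686 in wild-type mice (-0.59 ± 0.43, and -1.35 without both). Asns, asparagine synthetase, was at 21 in 2 libraries of each genotype, so its place among the 13 rests on the floor. Agxt2, a mitochondrial aminotransferase, differed least, with 1620 ± 120 in knockout mice and 1645 ± 319 in wild-type mice (SD, n = 3 each). Of enzymes not on the list, Amdhd1 of histidine breakdown averaged 2321 ± 320 in knockout mice and 2578 ± 503 in wild-type mice. Aspg, an asparaginase, averaged 1338 ± 98.6 in knockout mice and 1486 ± 198 in wild-type mice.

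**Figure D3:**
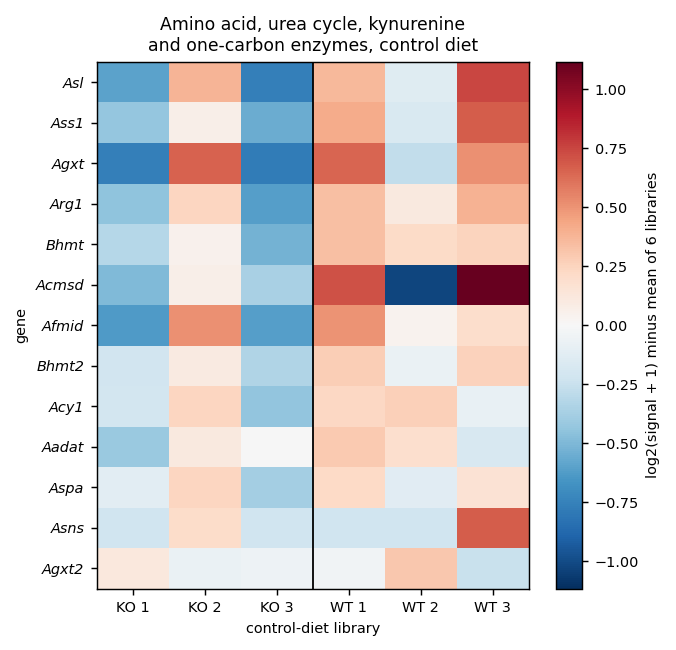
Heat map of log2(signal + 1) minus the mean of the 6 control-diet libraries (colour, red above and blue below the mean) for 13 amino acid, urea cycle, kynurenine and one-carbon enzymes (rows), in 3 knockout libraries left of 3 wild-type libraries (columns). Knockout replicates 1 and 3 have 1 and 0 members above the mean, whereas knockout replicate 2 has 12.

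None of the 8 measured lipoprotein genes passed the test. Their median log2 fold change was 0.05, and -0.11 with median centring, so the list had no settled direction. Apoa4, which travels on chylomicrons and is induced by fasting in liver, ranged most of all 111 genes, 16.4-fold over the 6 libraries. It had 33899, 2685 and 25298 in knockout mice and 2071, 27043 and 2208 in wild-type mice. Knockout replicates 1 and 3 and wild-type replicate 2 were high, the other 3 libraries were low, and the genotypes overlapped. The log2 fold change was 1.41 ± 1.17 (adjusted p = 0.68 by limma) with all libraries. It was 3.77 without both replicates 2, where it passed (adjusted p = 0.021), but those libraries were left out because of their values. Apoa1, the main protein of high-density lipoprotein and 1 of its neighbours on chromosome 9, had 90720, 81868 and 97328 in knockout mice, against 96996, 74444 and 60721 in wild-type mice (0.24 ± 0.19). Of the libraries low in Apoa4, wild-type replicate 3 was lowest in Apoa1 and wild-type replicate 1 next to highest, so the genes did not share an order. The windows before both starts are shown because these genes of 1 cluster differed so much in range.
Apoa4, chr9:46240594-46240843, + strand: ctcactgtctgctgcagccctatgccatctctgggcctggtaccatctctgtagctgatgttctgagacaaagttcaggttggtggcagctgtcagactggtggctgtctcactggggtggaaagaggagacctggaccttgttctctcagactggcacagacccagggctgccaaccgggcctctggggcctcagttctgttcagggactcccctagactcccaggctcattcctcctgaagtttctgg
Apoa1, chr9:46228380-46228629, + strand: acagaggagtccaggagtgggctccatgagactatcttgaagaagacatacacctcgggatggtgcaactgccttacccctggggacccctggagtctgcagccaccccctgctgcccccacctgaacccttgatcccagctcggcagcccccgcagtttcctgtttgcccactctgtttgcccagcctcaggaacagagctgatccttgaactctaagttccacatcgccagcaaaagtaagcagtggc
Neither window holds any of these motifs on either strand.

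Apoc2, the activator of lipoprotein lipase, had 10320, 3653 and 8687 in knockout mice and 2875, 7900 and 4742 in wild-type mice (0.53 ± 0.47 with all libraries, 1.36 without both replicates 2). It was high in the same 3 libraries as Apoa4. Apom, the carrier of sphingosine-1-phosphate, had 2039, 3108 and 1975 in knockout mice, against 4080, 2005 and 2947 in wild-type mice (-0.32 ± 0.27, and -0.79 without both replicates 2). Wild-type replicate 2 stood among the low knockout values there. Apoa2, the second protein of high-density lipoprotein, averaged 86079 ± 19167 in knockout mice and 97875 ± 2174 in wild-type mice (-0.21 ± 0.19, and -0.39 without both). Apob, the structural protein of very-low-density lipoprotein, averaged 27417 ± 2239 in knockout mice and 26432 ± 1307 in wild-type mice. Apoe, of remnant particles, averaged 79148 ± 6925 in knockout mice and 76604 ± 11293 in wild-type mice. For Apob and Apoe the difference of means was smaller than either group's SD.

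**Figure D4:**
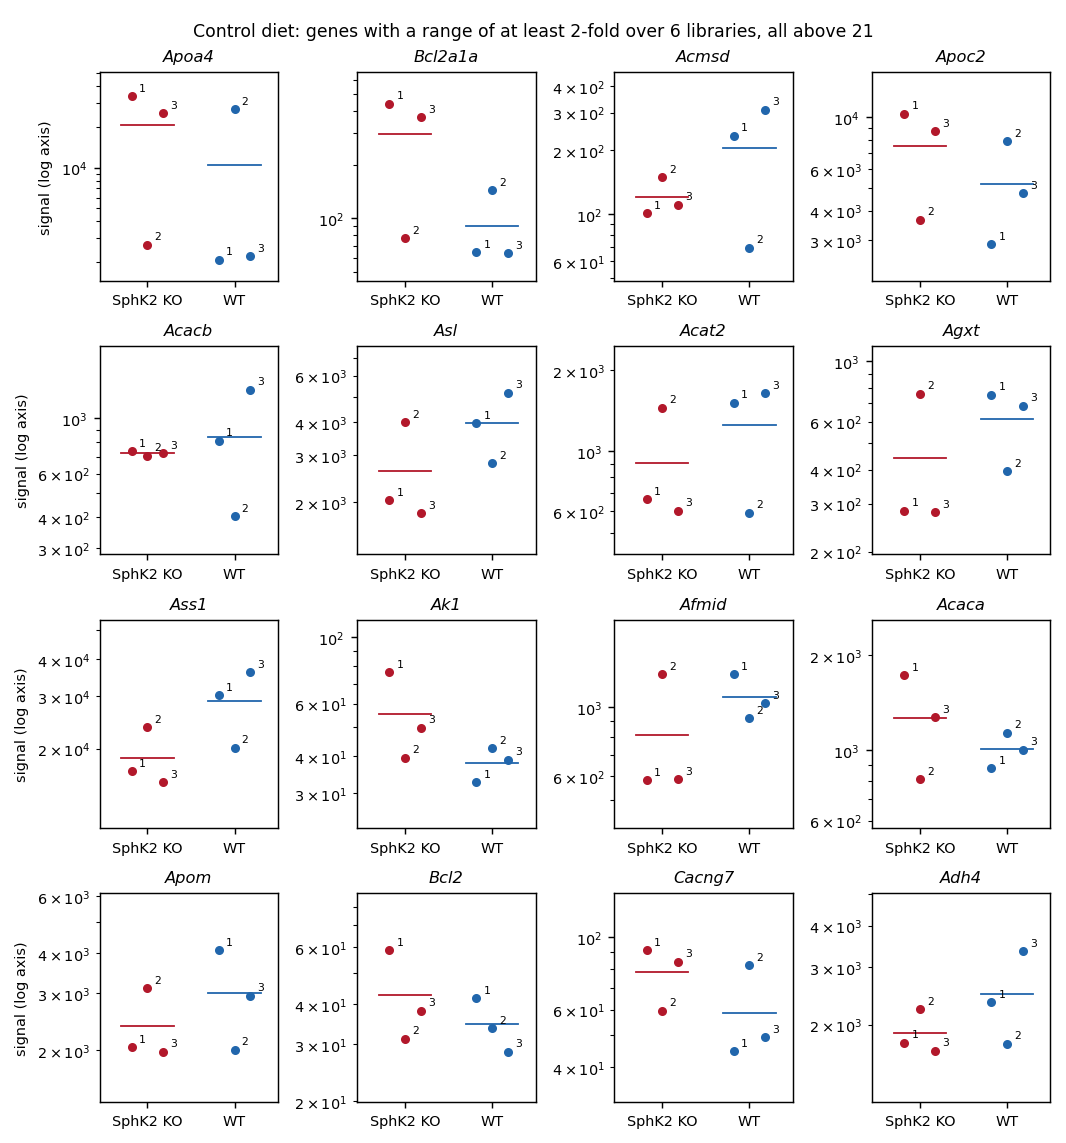
Normalized nCounter signal (log axis, 1 scale per panel) of 16 genes from A2m to Cat that ranged at least 2-fold over the 6 control-diet libraries and were above 21 in all of them, in SphK2 knockout (red) and wild-type (blue) mice. Numbers mark replicates and lines the means of 3. Knockout replicate 2 lies among the wild-type values in Apoa4 and Acat2 and just above them in Agxt, and wild-type replicate 2 lies at or among the knockout values in Apoa4, Apoc2 and Acat2.

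None of 3 mitochondrial fatty acid oxidation genes passed, and their median log2 fold change was 0.00. Acaa2, the mitochondrial acyl-CoA thiolase, averaged 10544 ± 1020 in knockout mice and 10958 ± 310 in wild-type mice (SD, n = 3 each). Acadl, the long-chain acyl-CoA dehydrogenase, averaged 3432 ± 123 in knockout mice and 3441 ± 79.2 in wild-type mice, and Acat1, of ketone metabolism, averaged 8197 ± 591 in knockout mice and 8000 ± 896 in wild-type mice. Differences between the means were below the larger SD in each. Cat, the catalase of peroxisomes, had 37235, 50985 and 35674 in knockout mice, against 52222, 44663 and 50720 in wild-type mice (-0.27 ± 0.18, and -0.50 without both). Among genes of lipid synthesis, Acat2, the cytosolic acetyl-CoA acetyltransferase of the sterol route, had 663, 1449 and 601 in knockout mice and 1510, 593 and 1635 in wild-type mice. Each replicate 2 took the level of the other genotype in Acat2. The estimate for Acat2 was -0.45 ± 0.44 with all libraries and -1.31 without both replicates 2. Acaca, the cytosolic acetyl-CoA carboxylase, had 1722, 812 and 1269 in knockout mice and 878, 1136 and 1003 in wild-type mice (0.28 ± 0.27, and 0.66 without both). Acacb, the carboxylase at the mitochondrial membrane, spread mainly in wild-type mice, with 736, 708 and 726 in knockout mice and 813, 405 and 1306 in wild-type mice (-0.06 ± 0.41, and -0.50 without both).

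Of 8 genes of alcohol, aldehyde and amine oxidation, none passed and 7 were lower on average in knockout mice, with a median log2 fold change of -0.09. Over all 736 rows, 288 were lower. With median centring 8 of 8 were lower, beside 522 of 736 rows, and the median was -0.25. Aoc2 counts as lower there only through that shift. It had 22.0, 21 and 23.55 in knockout mice and stood at 21 in every wild-type library. Adh1, the main hepatic alcohol dehydrogenase, had 26432, 29540 and 22202 in knockout mice, against 29207, 29979 and 36706 in wild-type mice (-0.30 ± 0.14). Adh4, a second hepatic alcohol dehydrogenase, had 1763, 2227 and 1665 in knockout mice, against 2341, 1749 and 3349 in wild-type mice (-0.36 ± 0.27, and -0.71 without both). Aldh2, which oxidises acetaldehyde in mitochondria, averaged 24923 ± 1938 in knockout mice and 25711 ± 1985 in wild-type mice. Aldoa, a glycolytic aldolase, had 2419, 1262 and 2113 in knockout mice and 1380, 1458 and 1570 in wild-type mice (0.34 ± 0.25, and 0.62 without both). Knockout replicate 2 was the lowest of all 6 libraries in Aldoa.

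Of 11 nucleotide genes, none passed, 7 were higher and 3 lower on average in knockout mice, and the median log2 fold change was 0.17 (0.01 with median centring). Ak1, the cytosolic adenylate kinase, had 76.5, 39.4 and 49.8 in knockout mice and 32.7, 42.5 and 38.8 in wild-type mice (0.48 ± 0.22, and 0.78 without both). Its spread in knockout mice came from replicate 1. Ak3, the adenylate kinase of the mitochondrial matrix, averaged 3866 ± 391 in knockout mice and 4542 ± 251 in wild-type mice (-0.24 ± 0.12, and -0.36 without both). Atp5d, a further ATP synthase subunit, averaged 4016 ± 300 in knockout mice and 4419 ± 204 in wild-type mice (-0.14 ± 0.07, and -0.23 without both).

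**Figure D5:**
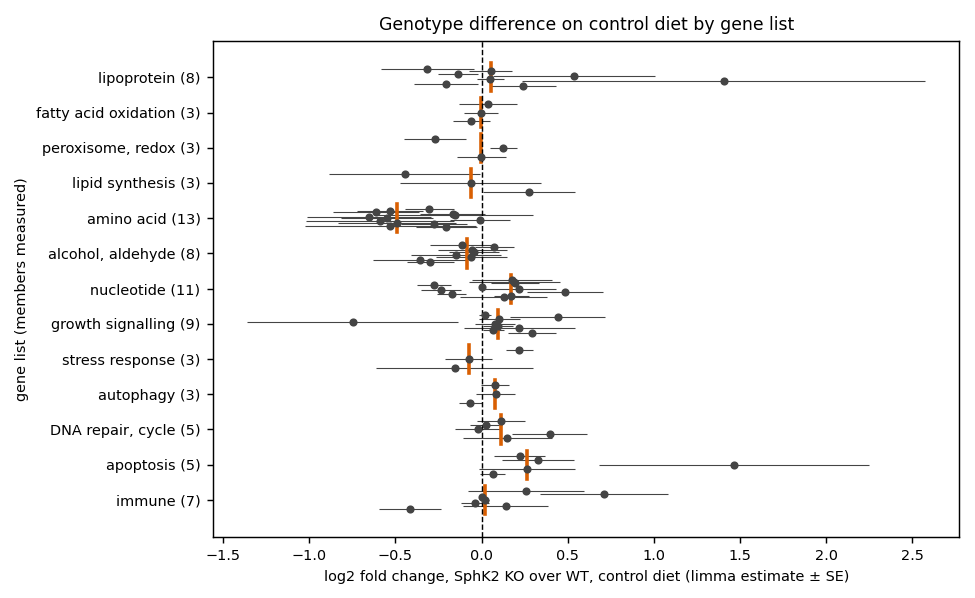
Estimated log2 fold change, SphK2 knockout over wild type on control diet (x axis, limma estimate with SE as bars), of the genes of each list with at least 3 measured members (rows, number measured in parentheses), with the list median in orange. The amino acid list has its 13 estimates below 0 and a median of -0.49, the apoptosis list its 5 estimates above 0, and no gene passed the test.

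The 5 measured apoptosis genes were higher on average in knockout mice and none passed, with a median log2 fold change of 0.26, beside 0.02 over all rows. With median centring 4 of the 5 were higher and 1 lower, and the median was 0.10. In knockout replicates 1, 2 and 3, 5, 1 and 5 of them stood above the mean of the 6 libraries, against 1, 1 and 2 in wild-type replicates 1, 2 and 3. Bcl2a1a, an anti-apoptotic Bcl-2 relative of blood cells, had 442, 77.0 and 370 in knockout mice and 64.5, 143 and 63.5 in wild-type mice. Its log2 fold change, 1.46 ± 0.78 and 2.64 without both replicates 2, came from knockout replicates 1 and 3. Bcl2l1, which encodes Bcl-xL, had 323, 180 and 312 in knockout mice and 203, 232 and 193 in wild-type mice (0.33 ± 0.21). It was 0.68 without both replicates 2, where it passed (adjusted p = 0.046 by limma). Bcl2, the founding survival factor of the family, had 58.7, 31.2 and 38.04 in knockout mice and 41.6, 33.6 and 28.4 in wild-type mice (0.26 ± 0.28, and 0.45 without both). Bad, a pro-apoptotic member that growth factor kinases inactivate, averaged 311 ± 1.40 in knockout mice and 298 ± 12.7 in wild-type mice.

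None of 9 genes of growth factor signalling passed, and their median log2 fold change of 0.09 became -0.07 with median centring. Akt1, a kinase downstream of insulin and growth factors, had 499, 354 and 484 in knockout mice and 351, 373 and 355 in wild-type mice (0.29 ± 0.14, and 0.48 without both). Akt2, the main isoform of hepatic insulin signalling, averaged 534 ± 31.5 in knockout mice and 509 ± 15.1 in wild-type mice. Cacng7, a calcium channel and glutamate receptor subunit, had 91.2, 59.6 and 84.2 in knockout mice and 44.6, 82.1 and 49.3 in wild-type mice (0.44 ± 0.27, and 0.89 without both). Braf, a kinase of the MAP kinase cascade, was listed at 21 in knockout replicate 1 and had 114 and 115 in the other knockout libraries, against 138, 87.0 and 113 in wild-type mice. Its log2 fold change of -0.75 ± 0.61 rests on that single value and was 0.05 without it, and -1.31 without both replicates 2.

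Stress response genes did not pass either. Atf4, the main transcription factor of the integrated stress response, averaged 1223 ± 20.6 in knockout mice and 1309 ± 276 in wild-type mice. Its knockout values lay within the wild-type range of 992 to 1493. The autophagy genes Atg2b, a lipid transfer protein, and Atg101, of the initiating kinase complex, did not pass: Atg2b averaged 294 ± 10.5 in knockout mice and 308 ± 19.5 in wild-type mice, and Atg101 351 ± 12.7 in knockout mice and 333 ± 35.0 in wild-type mice. Of 7 immune genes, none was above 21 in all 6 libraries. Btk, a kinase of B cells and myeloid cells, had 43.0, 26.6 and 53.4 in knockout mice, against 22.8, 27.7 and 21 in wild-type mice (0.71 ± 0.37, and 1.10 without both). The neuronal calcium channel genes Cacna1e and Cacng3 were at 21 in knockout replicates 1 and 3 and at 23.8 and 32.1 in replicate 2. In wild-type mice Cacna1e had 34.7, 29.7 and 21, and Cacng3 had 32.7, 32.6 and 29.4. Their log2 fold changes of -0.33 ± 0.16 and -0.37 ± 0.17 rest on that floor.

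The genotype difference on control diet was set against that on Western diet through the interaction. No row passed (0 of 736, 0.0%, by limma with adjustment; 44 rows, 5.98%, had a raw p under 0.05), so no gene is shown to differ between diets. On Western diet 29 of the 111 genes did not overlap between genotypes, beside 173 of 736 rows (23.5%). Of the 12 genes without overlap on control diet, 1, Atox1, also had none on Western diet in the same direction, beside 7 of 736 rows (0.951%). Bhmt had a log2 fold change of -0.11 ± 0.19 on Western diet, and Ass1 one of -0.80 ± 0.25. Akt2 had the smallest interaction p of the 111 genes (0.07 ± 0.06 on control and -0.27 ± 0.06 on Western diet, adjusted p = 0.46 by limma).

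Leaving out the libraries that stood apart changed the counts. Without both control-diet replicates 2, limma called 26 of 736 rows (3.53%), 16 higher (2.17%) and 10 lower (1.36%), among them 4 of the 111 genes: Apoa4 and Bcl2l1 higher, Acat2 and Ass1 lower in knockout mice. Their adjusted p were 0.021, 0.046, 0.0335 and 0.0498. Since those libraries were left out because of their values, these calls are not an independent test. With library weights estimated by limma, 195 rows (26.5%) passed, 118 higher (16.0%) and 77 lower (10.5%), with 29 of them among the 111 genes, 11 higher and 18 lower. These weights were 0.22 for knockout replicate 2 and 0.65 for wild-type replicate 2, against 0.82 to 2.37 for the other control-diet libraries. On Western diet they were 7.45, 0.34 and 0.40 for knockout replicates 1, 2 and 3, and 4.02, 0.70 and 0.61 for wild-type replicates. Those libraries share the spread estimate behind the calls, so uneven weights there enter the counts too. The weights follow how far a library lies from its group, so on control diet they lower the same libraries that stood apart. Their estimate stopped before it converged. Without knockout replicate 2 alone, limma called 3 rows, none of them among the 111 genes, and without any other single library it called 0.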

How the data were processed

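RNA of 12 male mice, 3 per group, was extracted with Trizol and hybridised to barcoded probes of a metabolic panel, per the labels' protocols. The authors deposited 736 rows of signal already normalized. How they normalized (program, housekeeping genes, background) is not stated in the labels. Signal above 21 and below 3000 came in whole multiples of 1 step per library (100% within 0.1), worth 0.906 to 1.05 in control-diet libraries, so it appears as counts times 1 factor. Values at 21 hide their counts, and a count model was therefore not fitted. A listed 21 carries no order.

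Testing used limma 3.58.1 under R 4.3.3 on log2(value + 1), with lmFit and eBayes, fitting 4 group means over 12 libraries (8 residual degrees of freedom), with Benjamini-Hochberg adjustment over 736 rows. Fold changes are knockout over wild type, with limma's moderated SE; they understate low genes. The fit was tested on simulated data in which rows had similar spreads and no library was displaced toward the other genotype. That test does not cover the libraries that stood apart here. Nothing in the labels describes litters or cages, so p-values cover only variation among these animals, and 3 per group limits the precision. All 111 names, and all 736, were symbols of the RefSeq gene table (GRCm38.p6), and 89 of the 111 had a promoter sequence.

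The members and lists were chosen with earlier results of these data known. Named were the 12 genes of smallest p, those whose groups did not overlap above 21, up to 6 genes of highest mean per list, Apoa4 and Apom, and genes at 21 in all of 1 group only, of which there were none. Genes with a range of at least 2-fold, Amdhd1 and Aspg were added after their values were seen. Bcl2l1, Aldoa, Ak3, Atp5d, Cat, Apoa1 and Apoa2 fall under the naming rule as genes of highest mean. Their log2 fold changes are printed by a choice made outside that rule, for Bcl2l1 after its values were seen. A few genes that this rule would name are not reported here. Alternatives were median centring, a filter on low rows, log2(value + 10), a variance trend with robust variances, library weights, the 6 control-diet libraries alone, age as a covariate, a floor of 32, and leaving out each library or both replicates 2. Library weights without low rows, and the groups' overlap without both replicates 2, were added after the data were seen.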

Additional observations from a re-analysis of the deposited data

How the results depend on the processing

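Of 43 genes given with a log2 fold change on control diet, 34 kept their direction under every alternative run. With age as a covariate the direction turned for Acaca (-0.15), Aldoa (-0.088), Apoa2 (0.14), Apoc3 (0.073), Btk (-0.042) and Cat (0.041), and with median centring for Atox1 (-0.039). Leaving out 1 library gave -0.51 to 0.33 for Acacb (turned without wild-type replicate 3) and -1.15 to 0.048 for Braf (turned without knockout replicate 1). Leaving out 1 library moved 28 of the 43 estimates by over 1.5-fold, among them Acaca (0.021 to 0.56), Bcl2 (0.012 to 0.46), Apom (-0.58 to -0.066) and Acmsd (-1.18 to -0.10). The cause was not tested.

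No row was called with all libraries. The count was 195 with library weights, 210 with weights from rows above 21 in at least 3 libraries, 26 without both control-diet replicates 2, and 0 to 3 without 1 library. Among the 111 genes it was 29, 33 and 4, and 0 without any 1 library. Rows at an unadjusted p under 0.05 numbered 35, against 306 and 289 with the weights, 17 with age, 204 without both replicates 2 and 11 to 185 without 1 library. For the 111 genes these were 6, against 43 with either set of weights, 3 with age, 32 without both replicates 2 and 1 to 25 without 1 library. The lowest counts came without control-diet knockout replicate 1 and the highest without knockout replicate 2; leaving out any of the other 4 control-diet libraries, or Western-diet knockout replicate 2, also moved the count over 1.5-fold. The interaction, with 0 calls, had 19 and 28 with the weights and 0 to 1 without 1 library (1 without Western-diet wild-type replicate 2).

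Rows without overlap, 49 in all and 12 of the 111, numbered 67 to 334 and 13 to 48 without 1 library, where fewer values must separate, and 431 and 64 without both replicates 2. With median centring 7 of the 111 did not overlap, and the median log2 fold change of the 111 was -0.17. Knockout replicate 2 was nearer to the wild type in 72.8% of all rows, 80.4% of rows above 21 in all 6 libraries and 85.2% with centring, which gave 88.3% over the 111 genes. Wild-type replicate 2 was nearer to the knockout in 49.9%, 58.0% and 45.2% of rows, and in 40.5% of the 111 genes with centring. No paired analysis was possible because the labels number no replicates, and the numbers used here are only names. Signal at 21 limits what can be said of 25 of the 111 genes, which touch it in at least 1 library.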
